A study of Mus musculus with 12 samples.

Results

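Whole liver is made mostly of hepatocytes, so chromatin prepared from it carries a small share from Kupffer cells, endothelial cells, stellate cells, bile duct cells and lymphocytes. The 33 genes described here are established markers of these non-parenchymal cells. They were chosen by name from their cell type and not by a value in the data, but with earlier results of these data known. They comprise 10 Kupffer cell genes, 8 endothelial genes, 7 stellate cell genes, 4 biliary genes and 4 lymphoid genes, of 21938 protein-coding genes in the annotation. For each gene, the peaks in its promoter and in a wider window were read from the 3 deposited ChIP-seq peak lists. The promoter was 1 kb on either side of any annotated transcript start, and the window was the gene with 10 kb on either side (GENCODE release vM21 on mm10).

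H3K4me2, the dimethylated form of lysine 4 on histone H3, marks promoters and enhancers that are active or poised for use in a cell. LSD1 (Kdm1a) removes methyl groups from this residue and is recruited to promoters and enhancers by transcription factors and corepressor complexes. Kupffer cells are the resident macrophages of the liver, and their identity genes are driven by PU.1 and other macrophage factors. Sinusoidal endothelial cells line the fenestrated capillaries and take up waste molecules from the blood, stellate cells store retinoids and turn into matrix-producing myofibroblasts on injury, and cholangiocytes line the bile ducts.

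LSD1 was precipitated from the liver of wild type C57BL/6 mice, and H3K4me2 from the liver of GFP control and LSD1-LKO mice of the same strain, with 2 ChIP libraries for each of the 3 lists. According to the methods, LSD1 fl/fl mice received AAV8-TBG-Cre to delete LSD1 or AAV8-TBG-GFP as the control, so that both H3K4me2 groups carry the floxed alleles and a viral vector, while the LSD1 ChIP mice are labelled only as wild type. The labels describe knockout in adult mice and give neither age nor sex. The methods describe high-fat feeding after the injections but do not say which diet the ChIP-seq animals had. The TBG promoter drives Cre in hepatocytes, so LSD1 was not targeted in the non-parenchymal cells that the 33 genes mark. A whole-liver peak at a marker can still come from hepatocytes. Peaks enter a list when both of its libraries have them, and the list gives for each peak the MACS fold enrichment over the control library and the −log10 p- and q-values in the first-listed and the second-listed library. A percentile below is the rank of a peak within its own list by its mean −log10 p-value, with the weakest peaks near 0 and the strongest near 100. No reads are in the lists, so depth is unknown, and a missing peak is not evidence that the mark is absent.

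In control liver, 6 of the 33 markers had an H3K4me2 promoter peak, against 59.6% of all protein-coding genes. In LSD1-LKO liver 8 had one, against 59.8%, and an LSD1 promoter peak was listed for 3, against 24.6%. Within the window, 13 markers had H3K4me2 in control (69.6% of all genes), 17 in LSD1-LKO (70.1%) and 11 had LSD1 (43.7%). No peak of any list lay in the window of 14 markers, a state found for 25.6% of all genes. The 5 cell types differed in these counts. None of the 14 Kupffer and lymphoid genes had a promoter peak in any list, whereas H3K4me2 promoter peaks in control were listed for 3 endothelial, 1 stellate and 2 biliary genes. In whole tissue, fewer cells of a type and a weaker mark per cell cannot be told apart. The lists also do not show which cells a peak came from, and most of the tissue is hepatocytes. The tissue label was checked with 14 hepatocyte genes, including albumin (Alb) and the transcription factor Hnf4a. This list, too, was chosen with earlier results of these data known. Of these, 12 had an H3K4me2 promoter peak in control and 13 in LSD1-LKO, 6 had an LSD1 promoter peak, and all 14 had peaks of every list in the window.

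**Figure D1:**
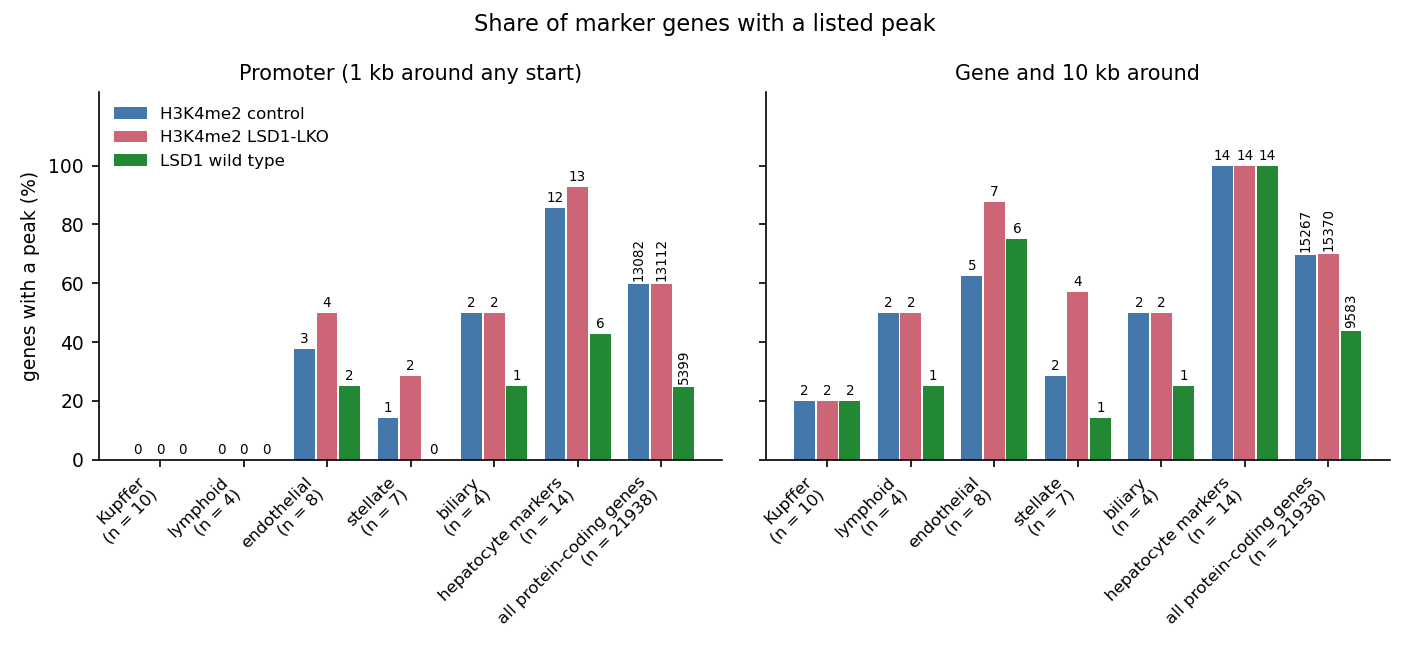
Share of genes (%) with at least 1 listed peak in the promoter (left) and in the gene and 10 kb around it (right), for the markers of each cell type, 14 hepatocyte markers and all protein-coding genes, with the number of genes above each bar. The Kupffer and lymphoid promoters stand at 0 in all 3 lists, while 14 of 14 hepatocyte genes have a peak of each list in the window.

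Many of the window peaks belonged to neighbouring genes. Among the 37 control H3K4me2 peaks in the windows of the markers, 12 lay at the promoter of another protein-coding gene and not at the marker's own. The same held for 9 of 42 LSD1-LKO peaks and 3 of 14 LSD1 peaks. When these peaks were set aside, 11 markers had H3K4me2 in control (66.3% of all genes), 15 in LSD1-LKO (67%) and 8 had LSD1 (38.2%). The remaining peaks at the markers had a median percentile of 37.5 for 25 control peaks (from 1.46 to 97.8), 41.1 for 33 LSD1-LKO peaks (from 0.697 to 96.2) and 28.9 for 11 LSD1 peaks (from 0.696 to 79.2). The distance from the outermost 5′ end of a marker to the nearest control H3K4me2 peak had a median of 34.9 kb, and that of all protein-coding genes was 0.167 kb.

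**Figure D2:**
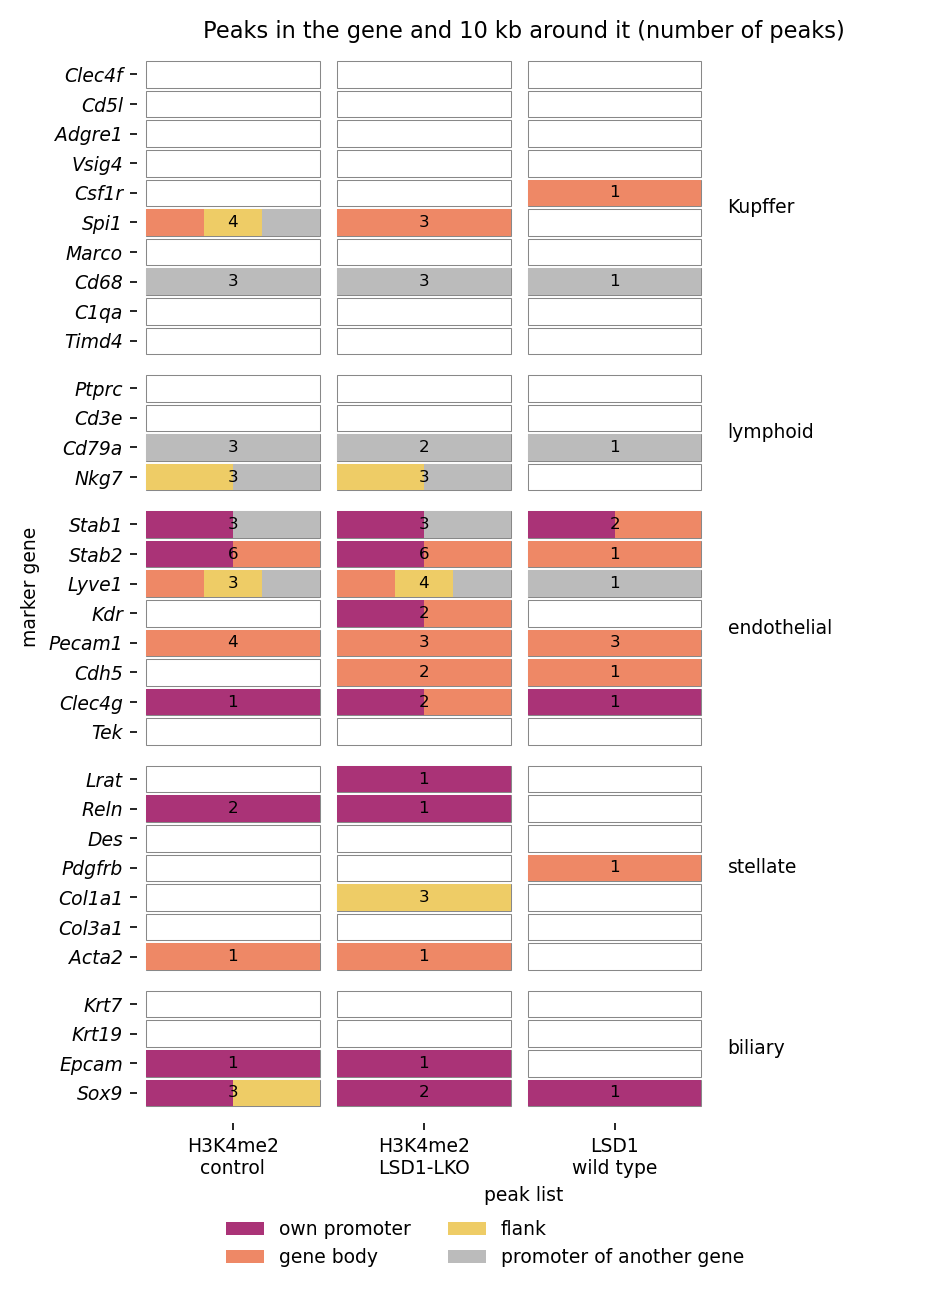
Number of listed peaks in the gene and 10 kb around it for each marker (rows, by cell type) in the 3 lists (columns). Colors give where the peaks lie, an empty box has none, and equal strips within a box mean that peaks of several kinds are present. Kupffer and lymphoid rows hold no peak at an own promoter.

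The markers also shared a sequence feature that the choice of genes did not use. Most of their promoters were poor in CpG, the dinucleotide that marks CpG island promoters, which carry H3K4 methylation in most tissues. The observed over expected CpG ratio within 1 kb of the 5′ end had a median of 0.216 over the markers and 0.474 over all genes. It was below 0.2 for 15 markers and between 0.2 and 0.4 for 12. Among all genes with a ratio below 0.2, 13.3% had a control H3K4me2 promoter peak, and 2 of these 15 markers did (Stab2 and Clec4g). Between 0.2 and 0.4 it was 36% of all genes and 1 of 12 markers (Stab1). Kdr and Lrat, both with a ratio between 0.4 and 0.6, had no peak in control and 1 each in LSD1-LKO, where 79.1% and 78.6% of all such genes had a peak. At a ratio of 0.6 or more, it was 92.7% of all genes (92.4% in LSD1-LKO) and in both lists 3 of 4 markers (Reln, Epcam and Sox9), with Des the exception. For LSD1 the shares of all genes in the 4 classes from low to high ratio were 5.3%, 11.8%, 26.1% and 44.5%, and the markers numbered 1 of 15, 1 of 12, 0 of 2 and 1 of 4. The limits of the classes were set after the values had been seen. All 10 Kupffer genes had a ratio below 0.25, from 0.0794 for Adgre1 to 0.245 for C1qa. The lymphoid genes ranged from 0.136 for Nkg7 to 0.376 for Cd3e. Whether the lack of promoter peaks at Kupffer and lymphoid genes went with cell type or with CpG ratio was not tested.

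**Figure D3:**
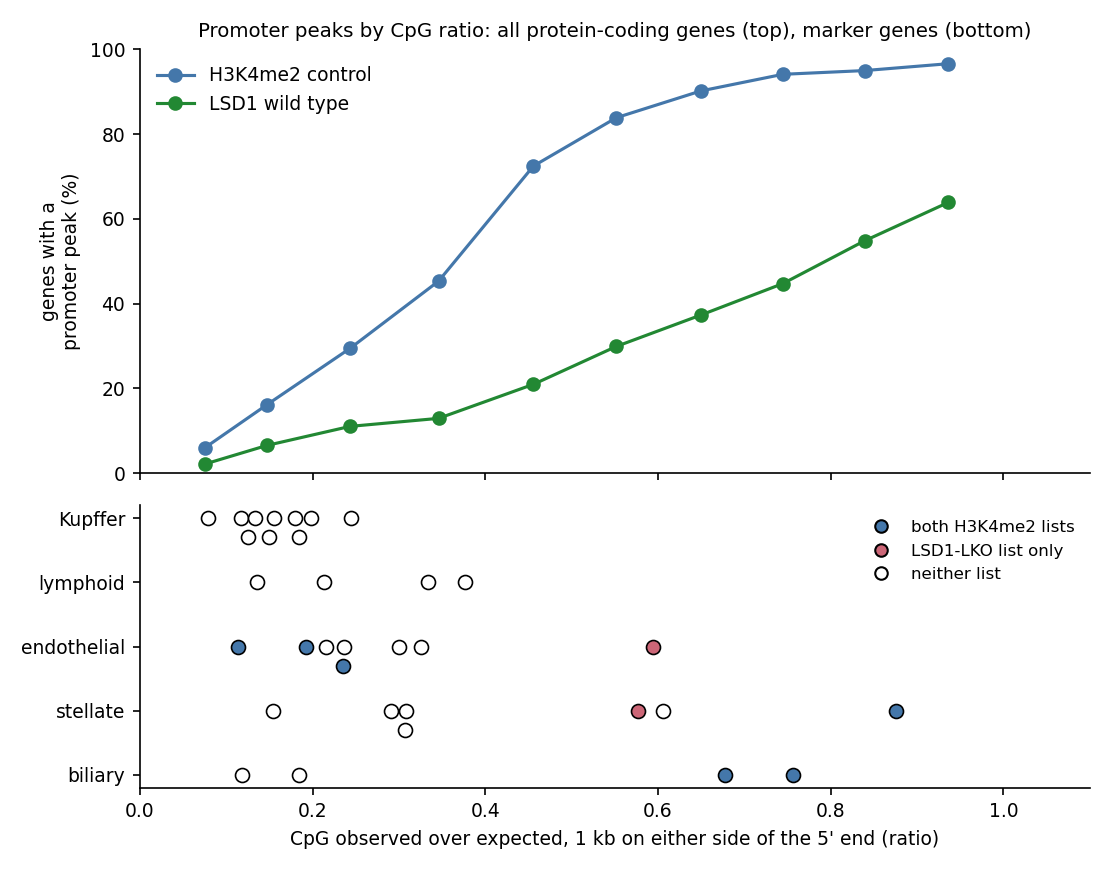
Top, share of all protein-coding genes (%) with a control H3K4me2 or LSD1 promoter peak in 10 bins of the CpG observed over expected ratio. Bottom, the 33 markers at their own ratio, filled by the H3K4me2 lists that hold a promoter peak, with points that would overlap shifted down. The shares rise from 5.97% to 96.6% for H3K4me2, and the Kupffer genes lie at the low end.

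Promoter sequences show this contrast. Those below run from up to 250 bases before the start to the base before it (the outermost start in GENCODE or RefSeq), are given 5′ to 3′ on the strand of the gene with CpG in capitals, and come from RefSeq (GRCm38.p6), whose table held 22 of the 33 markers. Stab1 and Clec4g are shown because they had an LSD1 promoter peak. Sox9, the other gene with one, was not in the table. Reln, Kdr, Des and Clec4f were added after the values had been seen. Reln (chr5:22344706-22344955, minus strand) lies wholly within an H3K4me2 peak of both lists and holds 37 CpG. Kdr (chr5:75978459-75978705, minus strand, 16 CpG) has 180 bases in an LSD1-LKO peak, and Des (chr1:75360042-75360291, plus strand, 10 CpG) has no peak. In Clec4g (chr8:3720652-3720901, minus strand, 4 CpG) the last 49 bases lie in an LSD1 peak. Stab1 (chr14:31168642-31168891, minus strand, 5 CpG) has no peak in this stretch, because its promoter peaks sit at internal starts. Clec4f (chr6:83656188-83656366, minus strand, 179 bases) holds 0 CpG and no peak.
Reln: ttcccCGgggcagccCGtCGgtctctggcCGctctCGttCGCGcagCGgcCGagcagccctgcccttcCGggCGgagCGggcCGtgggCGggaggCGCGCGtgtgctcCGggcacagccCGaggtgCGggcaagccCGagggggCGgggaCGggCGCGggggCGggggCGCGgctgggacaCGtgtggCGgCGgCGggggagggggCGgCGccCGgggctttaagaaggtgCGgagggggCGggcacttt
Kdr: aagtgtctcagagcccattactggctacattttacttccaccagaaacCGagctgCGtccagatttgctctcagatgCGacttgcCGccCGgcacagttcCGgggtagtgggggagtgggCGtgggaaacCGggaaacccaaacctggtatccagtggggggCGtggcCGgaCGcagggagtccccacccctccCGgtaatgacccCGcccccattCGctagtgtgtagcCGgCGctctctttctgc
Des: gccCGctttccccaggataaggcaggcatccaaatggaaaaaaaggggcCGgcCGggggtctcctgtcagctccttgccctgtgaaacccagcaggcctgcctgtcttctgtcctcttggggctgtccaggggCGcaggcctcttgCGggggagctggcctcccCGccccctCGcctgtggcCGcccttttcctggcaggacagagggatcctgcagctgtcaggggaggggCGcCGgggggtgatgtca
Clec4g: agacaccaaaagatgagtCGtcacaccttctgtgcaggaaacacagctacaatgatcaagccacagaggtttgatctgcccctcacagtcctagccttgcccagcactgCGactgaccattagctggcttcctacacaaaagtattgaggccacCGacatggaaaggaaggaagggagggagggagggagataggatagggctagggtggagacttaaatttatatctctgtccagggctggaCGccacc
Stab1: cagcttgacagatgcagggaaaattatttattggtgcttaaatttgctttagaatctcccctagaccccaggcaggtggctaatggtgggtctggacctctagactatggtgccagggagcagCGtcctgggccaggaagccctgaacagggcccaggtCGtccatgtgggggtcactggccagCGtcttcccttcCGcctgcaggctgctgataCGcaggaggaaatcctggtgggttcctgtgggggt
Clec4f: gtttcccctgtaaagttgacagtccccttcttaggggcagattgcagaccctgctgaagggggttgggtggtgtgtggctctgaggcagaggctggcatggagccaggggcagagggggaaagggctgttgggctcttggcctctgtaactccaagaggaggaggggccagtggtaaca

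Short motifs were searched on both strands from 250 bases before to 50 bases after the 5′ end. The PU.1 letters AGGAAGT, which some other ETS factors also bind, were in 9.34% of all promoters and in 3 of 33 markers (Cd3e, Pecam1 and Krt7). That count is close to the share of all promoters. No Kupffer gene had a match, but at this share they are too few for that to be read as a difference. The ETS letters CGGAAGT were in 7.78% of all promoters and in 0 markers, and the SP and KLF letters GGGCGG were in 43.0% of all and in 9 markers. The first pair of motifs share the letters GGAAGT, and GGGCGG overlaps neither. These are matches of letters and not binding sites.

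Among the Kupffer genes, 7 of 10 had no peak of any list in the window. These were Clec4f and Timd4 (Tim-4), which mark resident Kupffer cells, Cd5l (AIM), a secreted macrophage survival factor, Adgre1 (F4/80), Vsig4, a complement receptor, Marco, a scavenger receptor, and C1qa, a chain of complement C1q. Their nearest control H3K4me2 peaks were far away. The distance from the 5′ end was 54923 bp for Clec4f, 62037 bp for Adgre1 and 62520 bp for C1qa. For Marco it was 97006 bp, for Timd4 104097 bp and for Cd5l 150558 bp. Vsig4 on the X chromosome was 324811 bp from a control peak and 1126816 bp from an LSD1 peak. The LSD1-LKO list gave similar distances for these genes, such as 54623 bp for Clec4f and 324664 bp for Vsig4, with the exception of C1qa at 140973 bp.

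Csf1r, the receptor for macrophage colony-stimulating factor, had no H3K4me2 peak in the window but 1 LSD1 peak over a coding exon, 9591 bp past the 5′ end. Its fold enrichment was 2.26 and 3.95 in the 2 libraries (percentile 47.2). Spi1, which encodes PU.1, had no promoter peak. Most of its H3K4me2 peaks lay near its 3′ end, closer to a start of the muscle gene Mybpc3 than to its own 5′ end. A control peak of 288 bp lay in the upstream flank, with a fold enrichment of 2.61 and 8.28 (percentile 73.9), and had no overlapping LSD1-LKO peak. Its second-listed value is that of a single peak that also holds the neighbouring Slc39a13 promoter peak. By the first-listed library alone its percentile was 21.7. The peak over its 3′ end had a fold enrichment of 4.34 and 9.09 in control (568 bp, percentile 91.0) and 4.12 and 7.88 in LSD1-LKO (502 bp, percentile 88.9), so that the lists were close at this site. Next to the upstream flank peak, a stronger control peak of 3028 bp (percentile 96.7) belonged to the promoter of Slc39a13, a zinc transporter gene. That promoter peak overlapped an LSD1-LKO peak. Cd68, a lysosomal membrane protein of macrophages, is a short gene in a dense region, and its 3 control, 3 LSD1-LKO and 1 LSD1 window peaks were all at the promoters of Mpdu1 or Eif4a1. Without peaks at other genes, Spi1 was the only Kupffer gene with H3K4me2 in either list, and Csf1r the only one with LSD1.

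The 4 lymphoid genes showed the same pattern. Ptprc (CD45), the phosphatase on all leukocytes, and Cd3e, a subunit of the T cell receptor complex, had no peak in the window. The nearest control H3K4me2 peak was 34943 bp from the start of Ptprc and 20150 bp from that of Cd3e. Cd79a, a subunit of the B cell receptor, had 3 control, 2 LSD1-LKO and 1 LSD1 window peaks, all at the promoter of Arhgef1. Nkg7, a granule protein of cytotoxic cells, had 3 H3K4me2 peaks in each list downstream of the gene, near Etfb, which encodes a mitochondrial electron transfer flavoprotein subunit. Of these, 2 control and 1 LSD1-LKO peaks lay at the promoters of Etfb or Gm45233, and the rest beside them.

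With peaks at other genes set aside, 5 of 8 endothelial genes had H3K4me2 in control (62.5%, against 66.3% of all genes), 7 in LSD1-LKO (87.5% against 67%) and 5 had LSD1 (62.5% against 38.2%). No difference between cell types was tested. A longer gene has a longer window, and these shares were not matched for gene length. When both libraries had to reach a p-value of 1e-05, the control promoter count of the endothelial genes went from 3 to 0. With all window peaks counted, 2 had H3K4me2 in control at this threshold (Stab1 and Lyve1). Both had it only through peaks at the promoters of other genes. Most of the listed peaks not at other genes' promoters were inside the endothelial genes and not at their starts. Within 1 kb of the outermost 5′ end, no endothelial gene had H3K4me2 in control (55.7% of all genes), only Kdr had it in LSD1-LKO (55.8%) and only Clec4g had LSD1 (21.4%). The promoter peaks of the scavenger receptors Stab1 and Stab2 and the H3K4me2 promoter peaks of the lectin Clec4g (LSECtin), all known from sinusoidal endothelium, were at internal transcript starts.

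In Stab1, overlapping peaks of both H3K4me2 lists lay over a coding exon (chr14:31160039-31160975 in control, 7666 bp past the 5′ end). The peak was 937 bp wide in control, with a fold enrichment of 3.36 and 3.91 (percentile 37.7), and 1596 bp wide in LSD1-LKO, with 4.67 and 6.67 (percentile 83.8). Both LSD1-LKO libraries thus stood above both control libraries, although MACS folds of separate calls are not normalized to each other. The LSD1 peaks of Stab1 did not overlap H3K4me2. One was intronic (3.05 and 2.47, percentile 29.5) and the other lay at an internal start near the 3′ end (2.35 and 1.78, percentile 1.12). In Clec4g, the H3K4me2 peak at an internal start had a fold enrichment of 2.73 and 3.96 in control (percentile 28.3) and 2.22 and 2.78 in LSD1-LKO (percentile 4.06), with overlapping ranges. The LSD1 peak over the 5′ end of Clec4g (chr8:3720418-3720700) was among the weakest in its list, at 1.90 and 2.14 (percentile 0.696).

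Stab2, a gene of 166828 bp, had 6 intronic H3K4me2 peaks in each list, but only 2 control peaks overlapped an LSD1-LKO peak and 3 LSD1-LKO peaks a control peak. The covered length went from 5492 bp in control to 4366 bp in LSD1-LKO. The LSD1-LKO peaks with the highest rank, 34.7 and 60.3 kb past the 5′ end (percentiles 70.5 and 68.2), had no counterpart in the control list. Pecam1 (CD31), the junctional adhesion molecule of endothelium, had 4 control and 3 LSD1-LKO peaks in introns, which covered 1868 and 3109 bp. Of its 3 LSD1 peaks, the one with the highest rank (chr11:106667730-106668550, 4.23 and 4.09, percentile 79.2) overlapped an H3K4me2 peak of both lists. That H3K4me2 peak had a fold enrichment of 2.73 and 2.71 in control, with 2.95 and 5.37 in LSD1-LKO. Lyve1, a hyaluronan receptor, had weak peaks in its gene and flank, and the strong H3K4me2 and LSD1 peaks in its window were at the promoter of Rnf141 (percentile 98.5 in control, 91.9 in LSD1-LKO and 88.4 for LSD1).

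Kdr, the VEGF receptor 2, and Cdh5, which encodes VE-cadherin, had H3K4me2 in the LSD1-LKO list only. At Kdr a peak of 292 bp covered the 5′ end (chr5:75978347-75978638), with a fold enrichment of 2.06 and 2.89 (percentile 5.69) and −log10 q-values of 0.0589 and 1.49. Most of the Kdr sequence above lies in this peak, and another peak lay in an intron (2.95 and 2.51, percentile 9.13). At Cdh5, intronic peaks had 2.22 and 2.15 (percentile 0.697) and 2.59 and 2.51 (percentile 4.59), and an LSD1 peak elsewhere in the gene had 3.24 and 2.90 (percentile 43.7). All of these H3K4me2 peaks were in the lowest 10% of their list. Tek (TIE2), the angiopoietin receptor, had no peak, and the nearest control H3K4me2 peak was 124053 bp from its start.

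**Figure D4:**
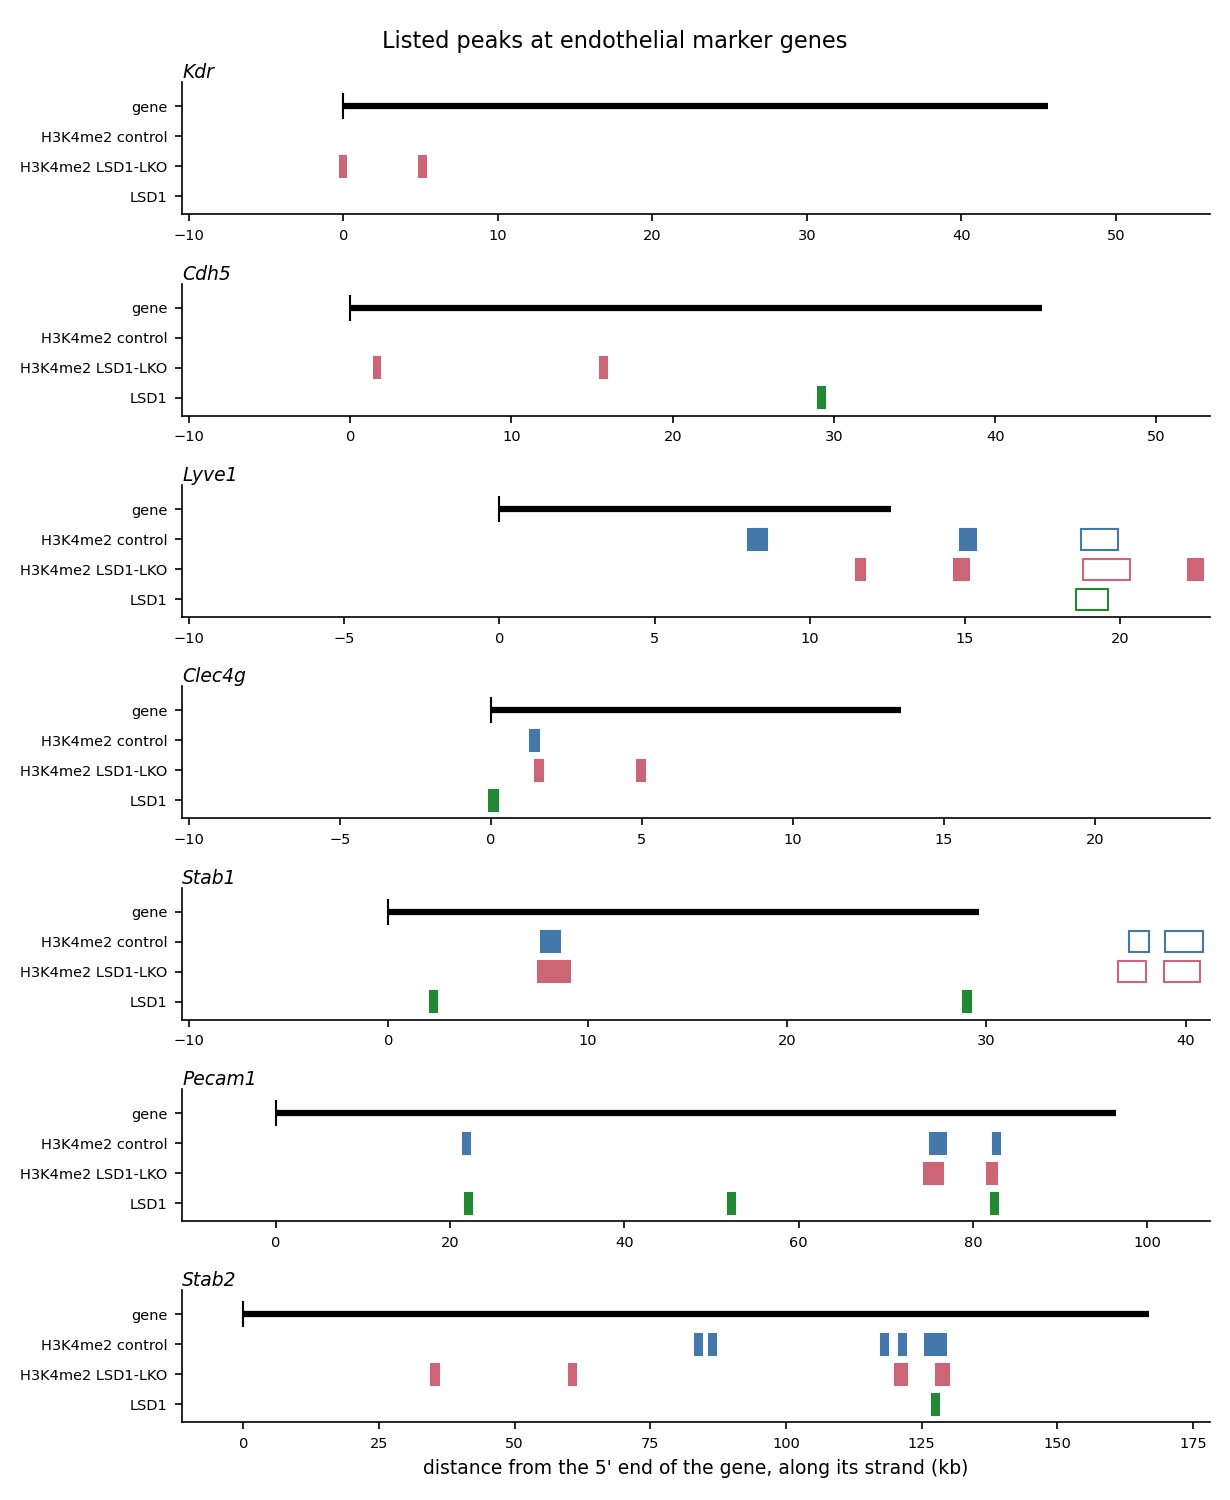
Listed peaks along 7 endothelial genes, as distance from the outermost 5′ end on the strand of the gene (kb), with the gene as a black line and a row for each list. Filled boxes are peaks not at the promoter of another gene, open boxes are peaks that are, and narrow peaks are drawn wider than they are so that they can be seen. Most filled H3K4me2 boxes lie within the genes, and of these 7 genes only Kdr has one over the 5′ end.

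The stellate cell genes split. Reln, which encodes the secreted glycoprotein reelin, had a strong H3K4me2 peak over its start in both lists. The control peak was 1538 bp wide with a fold enrichment of 6.71 and 5.81 (percentile 86.2), and the LSD1-LKO peak was 1373 bp wide with 4.67 and 8.68 (percentile 96.2). The fold ranges of the lists overlapped. Lrat, the enzyme that esterifies retinol for storage, had a single LSD1-LKO peak of 277 bp upstream of its start, with 2.59 and 2.51 (percentile 4.59) and −log10 q-values of 0.472 and 0.777, and in control the nearest peak was 104013 bp away. Acta2 (smooth muscle actin), a myofibroblast gene, had an intronic peak in both lists, with 2.98 and 1.82 in control (percentile 4.43) and 4.80 and 3.29 in LSD1-LKO (percentile 51.7). Here both LSD1-LKO libraries were above both control libraries. Col1a1, the main fibrillar collagen chain of scar tissue, had 3 LSD1-LKO peaks in its flanks (percentiles 19.6, 19.6 and 45.1) and none in control. The upstream peaks matched the same peak of the second-listed library. The downstream peak, nearest to a start of Hils1, was the only one with a q-value at or below 0.05 in both libraries. Des (desmin) and Col3a1 had no peak of any list, and for Col3a1 the nearest control H3K4me2 peak was 482722 bp away. Pdgfrb, the PDGF receptor on stellate cells, had no H3K4me2 but an intronic LSD1 peak of 423 bp, with 2.37 and 2.96 (percentile 24.1).

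Among the biliary genes, 2 of 4 had well-marked promoters. Sox9, a transcription factor of the ducts that periportal hepatocytes also express at a low level, had a control peak of 2334 bp over its start (chr11:112781149-112783482), with a fold enrichment of 5.97 and 10.4 (percentile 97.8) and −log10 q-values of 6.71 and 19.8. In LSD1-LKO the first-listed library had 2 peaks on either side of the start, of 1691 bp upstream (4.80 and 6.26, percentile 78.7) and 1066 bp downstream (5.54 and 6.26, percentile 84.4). The start itself lay in the gap, 40 bp from the nearer one. In the second-listed library a single peak ran unbroken over the start (chr11:112779857-112783946). Within the promoter, first-listed intervals covered 2001 bp in the control list against 1869 bp in LSD1-LKO. Second-listed intervals covered 4072 bp of the window in control and 4090 bp in LSD1-LKO. An LSD1 peak of 560 bp in wild type liver covered the start, with 2.61 and 2.90 (percentile 28.9), which made Sox9 the only marker with LSD1 and H3K4me2 peaks of both lists within 1 kb of its 5′ end. Epcam, an adhesion molecule of cholangiocytes and progenitor cells, had a peak of 641 bp in control (4.10 and 7.20, percentile 76.7) and of 934 bp in LSD1-LKO (4.43 and 7.16, percentile 83.4), and the folds overlapped. The cytokeratin genes Krt7 and Krt19 had no peak of any list, with the nearest control H3K4me2 peak 91758 and 163195 bp away.

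**Figure D5:**
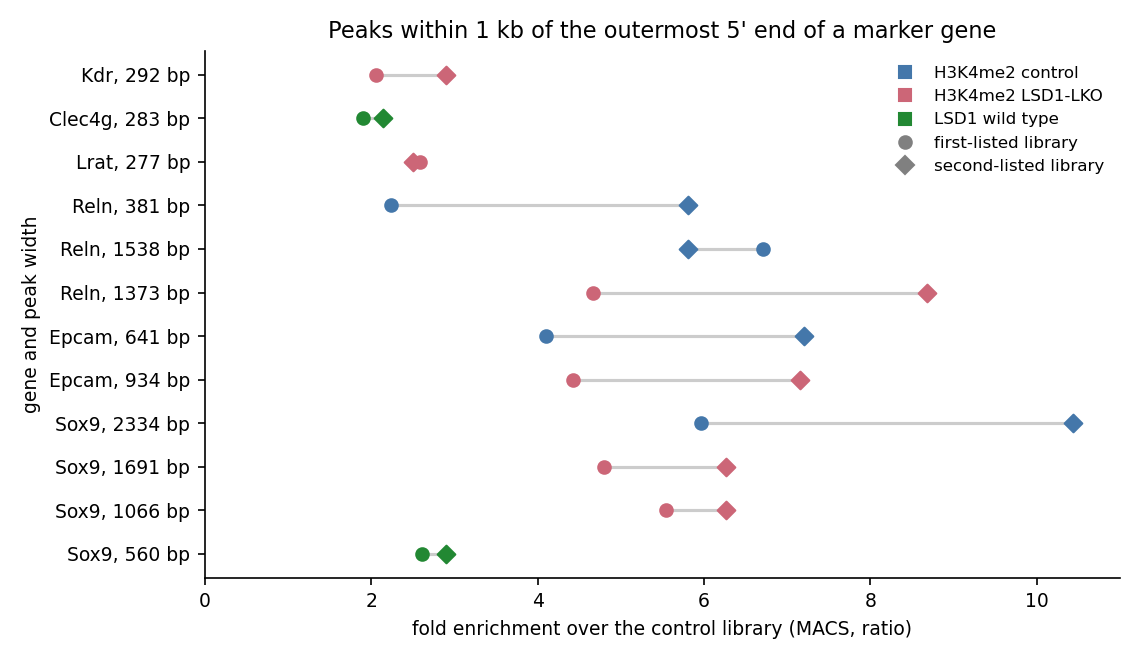
MACS fold enrichment over the control library (ratio) in the first-listed (circle) and second-listed (diamond) library for each peak within 1 kb of the outermost 5′ end of a marker, colored by list, with the peak width in bp. In the second-listed library H3K4me2 peaks at Sox9, Epcam and Reln have 5.81 to 10.4, and the LSD1-LKO peaks of Kdr and Lrat 2.89 and 2.51. In the first-listed library they have 2.24 to 6.71, against 2.06 at Kdr and 2.59 at Lrat, so the ranges overlap there.

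Control and LSD1-LKO lists were then compared over all markers. H3K4me2 promoter peaks were in both lists for 6 markers (56.6% of all genes), in LSD1-LKO only for 2, Kdr and Lrat (3.17%), in control only for 0 (3.03%) and in neither for 25 (37.2%). In the window, 13 had H3K4me2 in both lists, 4 in LSD1-LKO only (Kdr, Cdh5, Lrat and Col1a1, against 3.03% of all genes), 0 in control only (2.56%) and 16 in neither (27.4%). Of the 17 markers with H3K4me2 in the window, the covered length was greater in LSD1-LKO for 13 and smaller for 4 (Cd68, Stab2, Reln and Sox9), whereas it was greater for 43.2% and smaller for 56.8% of all such genes. The median change was 293 bp over these 17 markers and −144 bp over all such genes. It was greater in 6 of 7 endothelial, 3 of 4 stellate, 2 of 2 lymphoid, 1 of 2 Kupffer and 1 of 2 biliary genes. The lymphoid windows held peaks at or beside the promoters of other genes. With the peaks at other genes' promoters set aside, the length was greater for 12 markers and smaller for 3. No share of all genes is given for this measure. Among the 12 was Nkg7, where the remaining length rose from 616 to 2403 bp. There a control peak at the Etfb and Gm45233 promoters was set aside, while an overlapping LSD1-LKO peak was kept. The size of this rise thus depended on how the peaks were classed. With all window peaks counted, Nkg7 gained 906 bp. On that count the change spanned −1129 bp at Cd68, whose peaks belonged to its neighbours, to 1689 bp at Col1a1. With intervals of the second-listed library, the direction changed at Reln and Sox9 (greater in LSD1-LKO) and at Clec4g and Epcam (smaller).

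The peaks of the 4 genes marked in LSD1-LKO only had percentiles from 0.697 to 45.1. Which genes were marked in LSD1-LKO only changed with the MACS threshold, and were Col1a1 and Acta2 when both libraries had to reach a q-value of 0.05, and Stab2 and Pecam1 when both had to reach a p-value of 1e-05. The LSD1-LKO list also held more peaks, 50675 against 43891, with a lower median width, 565 against 648 bp. Between 2 and 2 libraries an exact permutation test can give no p below 0.333, so such a test could not reach 0.05 at a single gene and none was run. Peaks of the H3K4me2 lists that were found in 1 library only are not listed, so a peak missing from control may have been called in 1 control library.

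LSD1 was found in or near 11 markers, and 7 of the 14 LSD1 peaks in their windows overlapped a control H3K4me2 peak, against 52.5% of all LSD1 peaks. An LSD1-LKO H3K4me2 peak was overlapped by 6 of them, against 53.8%. In the other direction, 10 of 37 control peaks in the windows overlapped LSD1 (19% of all control peaks), as did 8 of 42 LSD1-LKO peaks (17.5%). The peaks of both lists often coincided, since 27 of the 37 control peaks overlapped an LSD1-LKO peak (68.1% of all) and 25 of the 42 LSD1-LKO peaks a control peak (64.1%). At the 11 LSD1 peaks not at another gene's promoter, 4 overlapped a control peak and 3 an LSD1-LKO peak. LSD1 without H3K4me2 anywhere in the window was seen at Csf1r and Pdgfrb. By cell type, the markers with LSD1 outside the promoters of other genes were 5 endothelial genes (Stab1, Stab2, Pecam1, Cdh5 and Clec4g), 1 Kupffer gene (Csf1r), 1 stellate gene (Pdgfrb) and 1 biliary gene (Sox9). None of the LSD1 peaks at a marker's own promoter had a q-value at or below 0.05 in both libraries, and outside the promoters of other genes the Pecam1 peak was the only one that did.

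In a second list, of 66 markers of the same 5 cell types, H3K4me2 was listed at the promoter of 26 in control (39.4%, against 59.6% of all genes) and 21 in LSD1-LKO (31.8% against 59.8%), and LSD1 at 7 (10.6% against 24.6%). Among the 33 markers these shares were 18.2%, 24.2% and 9.09%. H3K4me2 in control was at 5 of 14 Kupffer, 2 of 14 lymphoid, 8 of 14 endothelial, 4 of 14 stellate and 7 of 10 biliary promoters, so the lymphoid share was the lowest here. LSD1 was at 4 of 14 Kupffer promoters (28.6%), 2 of 14 endothelial and 1 of 10 biliary ones, and at 0 lymphoid and 0 stellate ones. The shift towards LSD1-LKO seen in the 33 markers was not present here, since 6 promoters were marked in control only and 1 in LSD1-LKO only, and the covered length was greater in LSD1-LKO for 18 and smaller for 21. LSD1 promoter peaks with the highest rank in this list were at Mertk, a phagocytic receptor (percentile 94.6), and Laptm5, a lysosomal protein of blood cells (percentile 88.6), among the Kupffer genes. They were at the transcription factor gene Maf (77.9) and the Fc receptor gene Fcgr2b (26.3) among the endothelial genes. Laptm5 was the only one of these 4 without an H3K4me2 promoter peak in either list. Its LSD1 peak was at an internal transcript start, 19573 bp from the outermost 5′ end. How far expression of such genes in hepatocytes contributed was not tested.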

How the data were processed

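ChIP was done for LSD1 in wild type liver and for H3K4me2 in GFP control and LSD1-LKO liver, with 2 ChIP libraries per list and 12 samples with the control libraries, which the labels call input without antibody and the methods IgG ChIP-seq. The authors mapped reads to mm10 with Bowtie 2, called narrow peaks per library with MACS at a P of 0.01, although some listed p-values are higher, and joined the libraries of a group with BEDtools (version 2.25.0 in the submitters' processing notes) intersect. The deposited fold enrichment is a ratio of ChIP to local background, and the deposited −log10 p-values and −log10 q-values are the authors' MACS output. Replicates were not pooled before calling. The 12 columns of scores and summit offsets were not used.

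Intervals of the first-listed library gave the positions, at least 1 bp of overlap was counted, and all listed peaks were kept. Second-listed values can be shared by neighbouring peaks. In both H3K4me2 lists, peak names refer to Picard in the first-listed library only, and the lists carry no replicate numbers. GENCODE vM21 was the annotation, and its chromosome names matched. Genes on the mitochondrial chromosome were left out. CpG ratios were computed over 1 kb on either side of the outermost 5′ end. The members and the lists of other markers and of hepatocyte genes were chosen with earlier results of these data known. All 33 members are accounted for by name. Of the other markers, at most 2 per cell type with the highest-ranking LSD1 promoter peak are named, 1 of which is not reported here, and promoter sequences were to be printed for members with an LSD1 promoter peak. No test was run over genes, which are not replicates. Alternatives covered the MACS threshold, the interval, the overlap, the promoter, the transcripts and the window. Overlap functions were tested on simulated data and checked against BEDtools 2.31.1. Python 3.11.15, numpy 2.4.6, pandas 2.3.3, pysam 0.24.0, samtools 1.23.1 and matplotlib 3.10.9 were used.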

Additional observations from a re-analysis of the deposited data

How the results depend on the processing

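Several counts over the markers depended on the MACS threshold and on the transcript starts used. When both libraries had to reach a p-value of 1e-05, control promoter peaks were at 3 markers instead of 6, LSD1-LKO promoter peaks at 5 instead of 8, and LSD1 promoter peaks at 0 instead of 3. In the window this threshold left LSD1-LKO H3K4me2 at 11 markers instead of 17, LSD1 at 2 instead of 11, H3K4me2 in LSD1-LKO only at 2 instead of 4, and a greater covered length in LSD1-LKO at 8 instead of 13. When both had to reach a q-value of 0.05, LSD1-LKO promoter peaks were at 5 markers, LSD1 promoter peaks at 0, promoter peaks in 1 H3K4me2 list only at 0 instead of 2, window LSD1 at 2, window H3K4me2 in LSD1-LKO only at 2 and a greater covered length at 8. At a p-value of 0.01, promoter peaks in 1 list only were at 1 marker and LSD1 promoter peaks at 1. With promoters of 0.5 kb, peaks in 1 list only were at 1 marker, and with promoters of 2 kb at 3. With the outermost 5′ end only, or with protein-coding transcripts only, control promoter peaks were at 3 markers and LSD1-LKO promoter peaks at 5, and the former setting left LSD1 at 2. The other counts over all markers stayed within 1.5 times their value, the median change in covered length over all 33 markers stayed at 0, and in none of the settings did a marker have H3K4me2 in control only. The median could hardly move, since 16 of the 33 markers had no change in covered length in the main setting. Kupffer and lymphoid promoters had 0 peaks in every setting. Only promoters of 2 kb and second-listed intervals could have raised that count, since the other settings can only remove promoter peaks. Of the counts by cell type, 46 moved by more than 1.5 times and 239 did not. Control promoter peaks at endothelial genes went from 3 to 0 at a p-value of 1e-05, at the outermost 5′ end and with protein-coding transcripts, and their control window count from 5 to 2 at that p-value. The stellate control window count went from 2 to 1 at a p-value of 0.01, a p-value of 1e-05 and a q-value of 0.05, the Kupffer one from 2 to 1 and the lymphoid one from 2 to 0 with the gene body alone. Counts of a greater or smaller covered length, and of windows marked in 1 list only, were chosen after seeing the data. No paired analysis was possible because the lists carry no replicate numbers, and leaving out a replicate was not possible because a peak is listed only when both libraries have it. Read depth is unknown, so how far it limits the counts was not tested.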
